A study of Mus musculus with 12 samples.

Results

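Organic anion and cation transporters carry drugs, urate, carnitine, prostaglandins, hormone conjugates and uremic toxins across cell membranes. The genes followed here are the protein-coding genes of the deposited table named Slc22a, Slco or Slc47a. There are 41 of them among 43346 genes, 25 of the Slc22a family, 14 of the Slco family and 2 of the Slc47a family. A count was present for 39 of them, and 35 were abundant enough to test. Kidney RNA of mice was sequenced in 12 libraries, 6 labelled HP-AKI and harvested after 1 day (samples 7, 8, 9, 11, 12 and 13) and 6 labelled sham (samples 1 to 6), which the series design places at 1 day as well. AKI means acute kidney injury. The abbreviation HP commonly denotes heme proteins, but the submitters leave it unexplained. Strain, age, sex, dose and inducing agent are not in the labels. Nor do they tie each sample to its own animal, so a p-value here reflects variation among libraries that could be technical.

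In the proximal tubule, organic anion transporters (OATs) of the basolateral membrane take up anions from blood in exchange for dicarboxylates, and other carriers release them into the lumen or reclaim urate from it. Organic cation transporters (OCTs) of the basolateral membrane work in series with the luminal proton exchanger MATE1, which extrudes cations into urine. The organic cation/carnitine transporters (OCTNs) reclaim carnitine and take up ergothioneine, and the organic anion transporting polypeptides (OATPs, gene names Slco) carry bile acids, steroid conjugates, thyroid hormones and prostaglandins.

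Many of these genes arose by tandem duplication, and the starts of 4 of them are shown because they belong to the largest fall and to a run of neighbours that fell together. The sequences are the 250 bases before the start of the gene, from RefSeq on GRCm38.p6. For the first 3 the capitals mark the longest run of bases that all 3 share, 16 bases that begin at -77 in Slc22a28, -83 in Slc22a30 and -59 in Slc22a29, counted from the start of the gene. For Slco4c1 the capitals mark both matches to TGACNNNGC, the core of the antioxidant response element bound by NRF2.
Slc22a28, chr19:8131983-8132232, minus strand: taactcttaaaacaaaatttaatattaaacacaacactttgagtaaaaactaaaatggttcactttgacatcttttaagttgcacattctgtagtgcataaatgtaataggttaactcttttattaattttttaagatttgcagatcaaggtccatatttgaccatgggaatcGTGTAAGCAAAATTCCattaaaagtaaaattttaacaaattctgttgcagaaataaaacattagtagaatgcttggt
Slc22a30, chr19:8405106-8405355, minus strand: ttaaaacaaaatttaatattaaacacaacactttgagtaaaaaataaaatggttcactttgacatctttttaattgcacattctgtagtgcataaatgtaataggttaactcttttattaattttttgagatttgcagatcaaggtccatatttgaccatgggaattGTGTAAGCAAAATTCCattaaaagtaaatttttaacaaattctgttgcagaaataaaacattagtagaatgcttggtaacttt
Slc22a29, chr19:8218901-8219150, minus strand: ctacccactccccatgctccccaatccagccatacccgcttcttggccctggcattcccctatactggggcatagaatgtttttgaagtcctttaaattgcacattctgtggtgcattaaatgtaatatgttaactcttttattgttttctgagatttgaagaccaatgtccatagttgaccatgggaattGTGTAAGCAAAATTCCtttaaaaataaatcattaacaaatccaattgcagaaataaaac
Slco4c1, chr1:96872172-96872421, minus strand: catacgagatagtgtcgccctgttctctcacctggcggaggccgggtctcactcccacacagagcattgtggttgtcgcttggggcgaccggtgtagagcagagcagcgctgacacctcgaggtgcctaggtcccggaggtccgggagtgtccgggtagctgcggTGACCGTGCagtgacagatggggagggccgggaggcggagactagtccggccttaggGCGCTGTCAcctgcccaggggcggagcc
Over the full 300-base windows, which also hold 50 bases after the start, the promoters of Slc22a28 and Slc22a30 were identical at 288 of 294 aligned positions with 12 further gap positions, an identity of 94.1% with gaps counted. Those of Slc22a29 and Slc22a28 were identical at 217 of 281 with 38 gap positions, or 68.0%.

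The HP-AKI libraries held 31624522 to 40630917 counts and the sham libraries 35201197 to 41951129. The injury marker Havcr1 averaged 803 ± 189 CPM (counts-per-million scaled by TMM library factors) in HP-AKI and 4.90 ± 0.873 CPM in sham (SD, n = 6 each). Markers of every kidney segment looked for had counts, and the testis markers Prm1 and Tnp1 were at or near 0. The summed level of 7 proximal tubule markers was 2175 to 3598 CPM in HP-AKI and 10981 to 12983 CPM in sham, and all 7 fell. Falls were not confined to this segment, as the 2 distal convoluted tubule markers and 2 of 4 collecting duct markers fell. Of 2 loop of Henle markers 1 fell and 1 rose, and so did the 2 podocyte markers. Summed neutrophil markers were at 13.4 to 128 CPM in HP-AKI and 0.557 to 1.81 CPM in sham, with 2 of the 3 tested. All 3 fibroblast markers and 2 of 3 endothelial markers rose. Of 4 macrophage markers 1 rose and 2 fell, and of 2 lymphocyte markers 1 fell. The part of these cell markers in the transporter results was not tested, and in whole kidney fewer cells of a type and less RNA per cell cannot be told apart. Sham 1, sham 2 and HP-AKI 8 stood apart from the other libraries of their groups on a second principal component that held 7.84% of the variance, so results are also given without them.

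HP-AKI kidneys had less mRNA of most of these transporters. Of the 35 tested, 27 fell, 7 rose and 1 did not pass an adjusted p of 0.05 (edgeR quasi-likelihood test, Benjamini-Hochberg over all 17470 genes tested). Among all genes tested 72.8% passed, 35.2% lower and 37.7% higher. The median log2 fold change was -1.44 over the transporters and 0.04 over all genes tested. A fall of at least 2-fold was called for 22 of the 35, against 17.1% of all genes tested, and a rise of at least 2-fold for 6, against 16.1%. In 24 genes every HP-AKI value lay below every sham value, and in 6 genes above, where 25.8% and 26.7% of all genes tested did so, 52.4% in all. Without sham 1, sham 2 and HP-AKI 8, 27 still fell and 6 rose. Slco1c1, Slco5a1 and Slc22a27 passed the abundance filter only through the group where they were high. A difference between groups was thus built into their entry, and their calls add little to these counts. With a filter of 1 CPM in 6 libraries, which leaves them out, 24 fell and 5 rose. By family, 20 of 23 tested Slc22a genes fell, both Slc47a genes fell, and the 10 tested Slco genes divided into 5 that fell and 5 that rose.

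**Figure D1:**
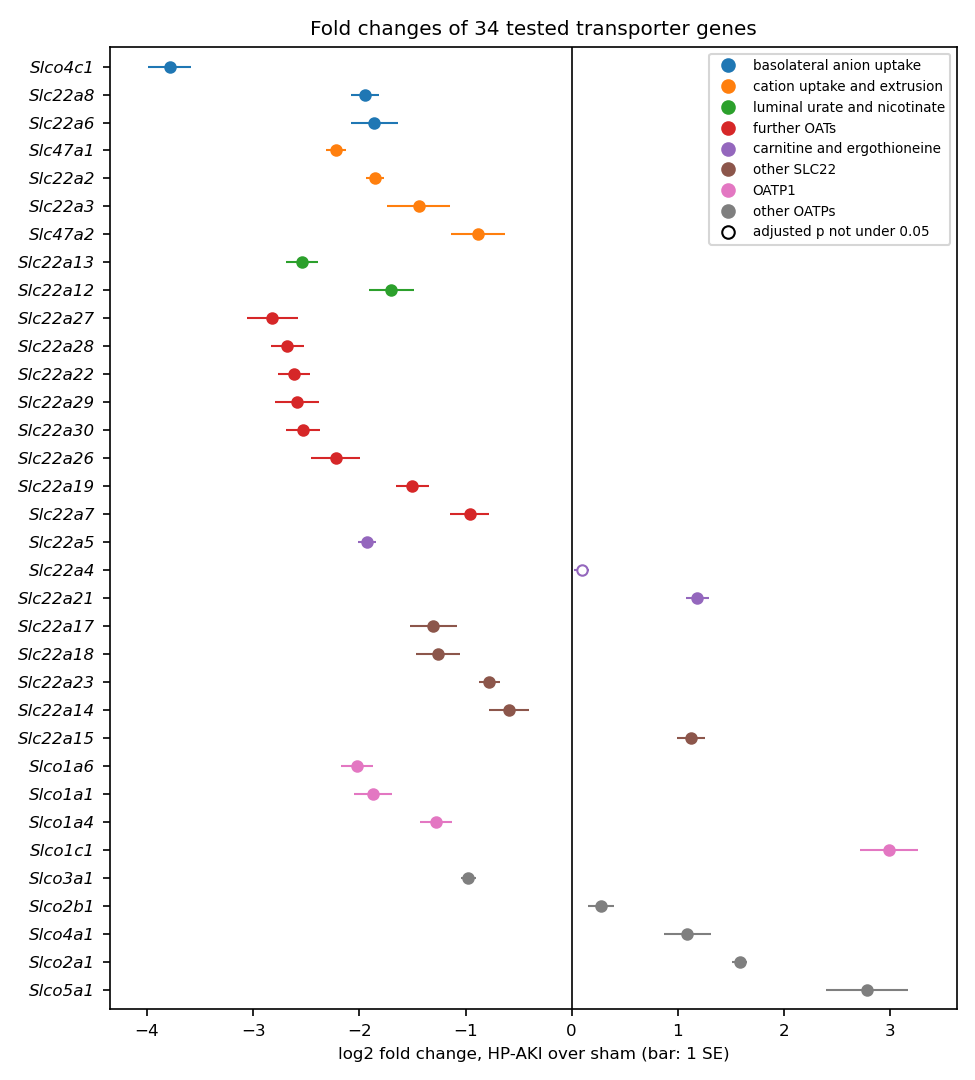
Log2 fold changes of HP-AKI over sham for 34 tested transporter genes, grouped and coloured by role, with bars of 1 SE (n = 6 libraries a group); the open point did not pass an adjusted p of 0.05. Most genes lie left of 0, Slco4c1 lowest at -3.79, while Slco1c1, Slco5a1 and Slco2a1 lie furthest to the right.

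Summed over all 41 genes, the transporters had 1968 ± 241 CPM in HP-AKI and 6108 ± 324 CPM in sham (SD, n = 6 each), a 3.10-fold lower mean in HP-AKI. The highest HP-AKI sum was 2298 CPM and the lowest sham sum 5500.5 CPM. The OATPs outside the OATP1 subfamily and apart from Slco4c1 summed to 260.2 ± 19.8 CPM in HP-AKI and 226 ± 18.8 CPM in sham, a 1.15-fold higher mean in HP-AKI. As the total was lower in HP-AKI, they took 13.2% of it in HP-AKI and 3.70% in sham, whereas the OATs outside basolateral uptake and urate transport, called further OATs in the plots, took 14.7% in HP-AKI and 20.6% in sham. The OCT and MATE genes took 18.3% in HP-AKI and 21.1% in sham. The urate transporter gene Slc22a12 held the largest share in both groups, 13.1% in HP-AKI and 13.7% in sham. These sums are descriptions and were not tested. The sums and shares are of CPM, not divided by gene length, so they are not shares of mRNA molecules. Long genes weigh more in them, as the listed length is 13545 bases for Slco2a1 and 2250 bases for Slc22a12.

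**Figure D2:**
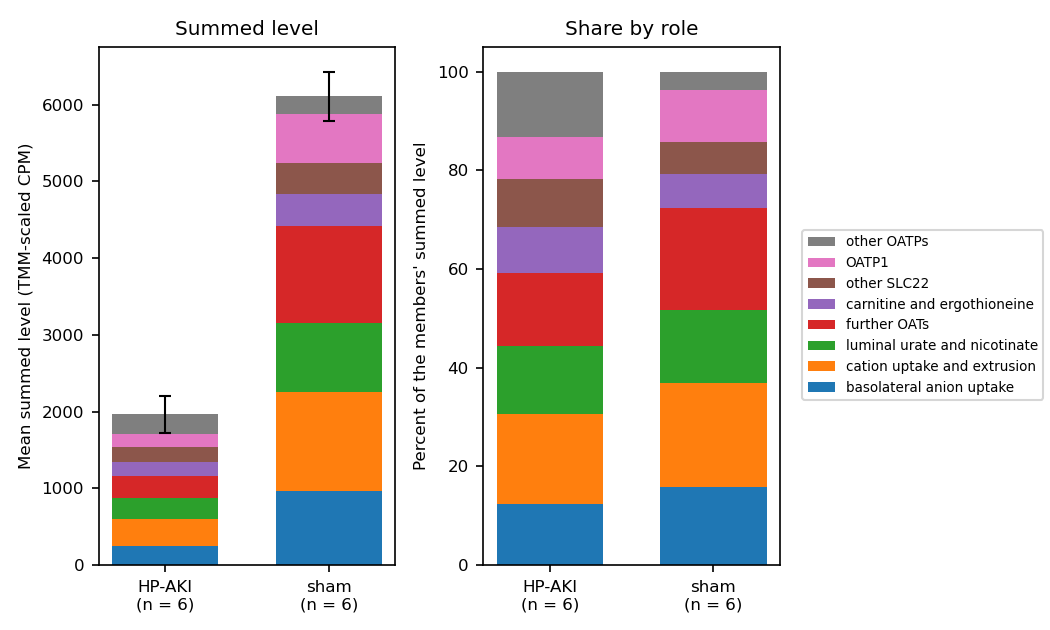
Summed level of the transporter genes by role, left in TMM-scaled CPM with the SD of the total over 6 libraries a group and right as percent of that total. The CPM are not divided by gene length. The total is 1968 CPM in HP-AKI and 6108 CPM in sham, and the share of the other OATPs is 13.2% in HP-AKI and 3.70% in sham.

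The 3 genes of basolateral anion uptake all fell. Slc22a6 encodes OAT1, the classical para-aminohippurate transporter. It ran from 62.6 over a median of 114 to 184 CPM in HP-AKI and from 358 over 479 to 523 CPM in sham. The groups did not overlap, and HP-AKI 8 was the lowest library. The log2 fold change was -1.86 ± 0.22 (SE), with an adjusted p of 2.11e-06 (edgeR). Slc22a8 encodes OAT3, which takes up bulkier anions and many drugs. It lay at 87.3, 111 and 154 CPM (lowest, median, highest) in HP-AKI and at 360.0, 460 and 488 CPM in sham, a log2 fold change of -1.95 ± 0.13 (SE). Its ratio to Slc22a6 within a library averaged 0.995 ± 0.218 in HP-AKI and 1.00 ± 0.100 in sham (SD, n = 6 each), with overlapping ranges. This ratio and the others between members were chosen after the values were seen and are given as descriptions, with no test. They divide CPM without regard to gene length, so they compare groups and do not show which gene was more abundant. Slco4c1 encodes OATP4C1, a basolateral carrier of digoxin, thyroid hormone and uremic toxins. It showed the largest fall of all members, with 3.53, 4.56 and 8.36 CPM in HP-AKI and 56.4, 65.7 and 86.8 CPM in sham. Every sham library was thus above every HP-AKI library, and the fitted level was 13.8-fold lower in HP-AKI (log2 fold change -3.79 ± 0.20, SE; adjusted p 2.67e-10, edgeR).

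The mRNA of basolateral and of luminal cation transporters fell. Slc22a2 encodes OCT2, the main basolateral cation transporter of the kidney. It had 71.2, 82.1 and 95.8 CPM in HP-AKI and 269, 302 and 328 CPM in sham (lowest, median, highest). Its log2 fold change was -1.85 ± 0.08 (SE), with no overlap of the groups. Slc47a1 encodes MATE1, the luminal proton exchanger. It had 133, 150.3 and 193 CPM in HP-AKI and 685, 729 and 778 CPM in sham, a 4.67-fold lower level in HP-AKI (log2 fold change -2.22 ± 0.09, SE; adjusted p 2.64e-11, edgeR). Its ratio to Slc22a2 was 1.87 ± 0.231 in HP-AKI and 2.41 ± 0.221 in sham, with ranges that overlapped slightly. Slc22a3, which encodes OCT3, a carrier of monoamines, and Slc47a2, the second MATE gene, were rare. They had 86 and 84 counts over the HP-AKI group and 231 and 152 counts over the sham group, and both fell (adjusted p 4.28e-04 and 0.00567, edgeR).

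**Figure D3:**
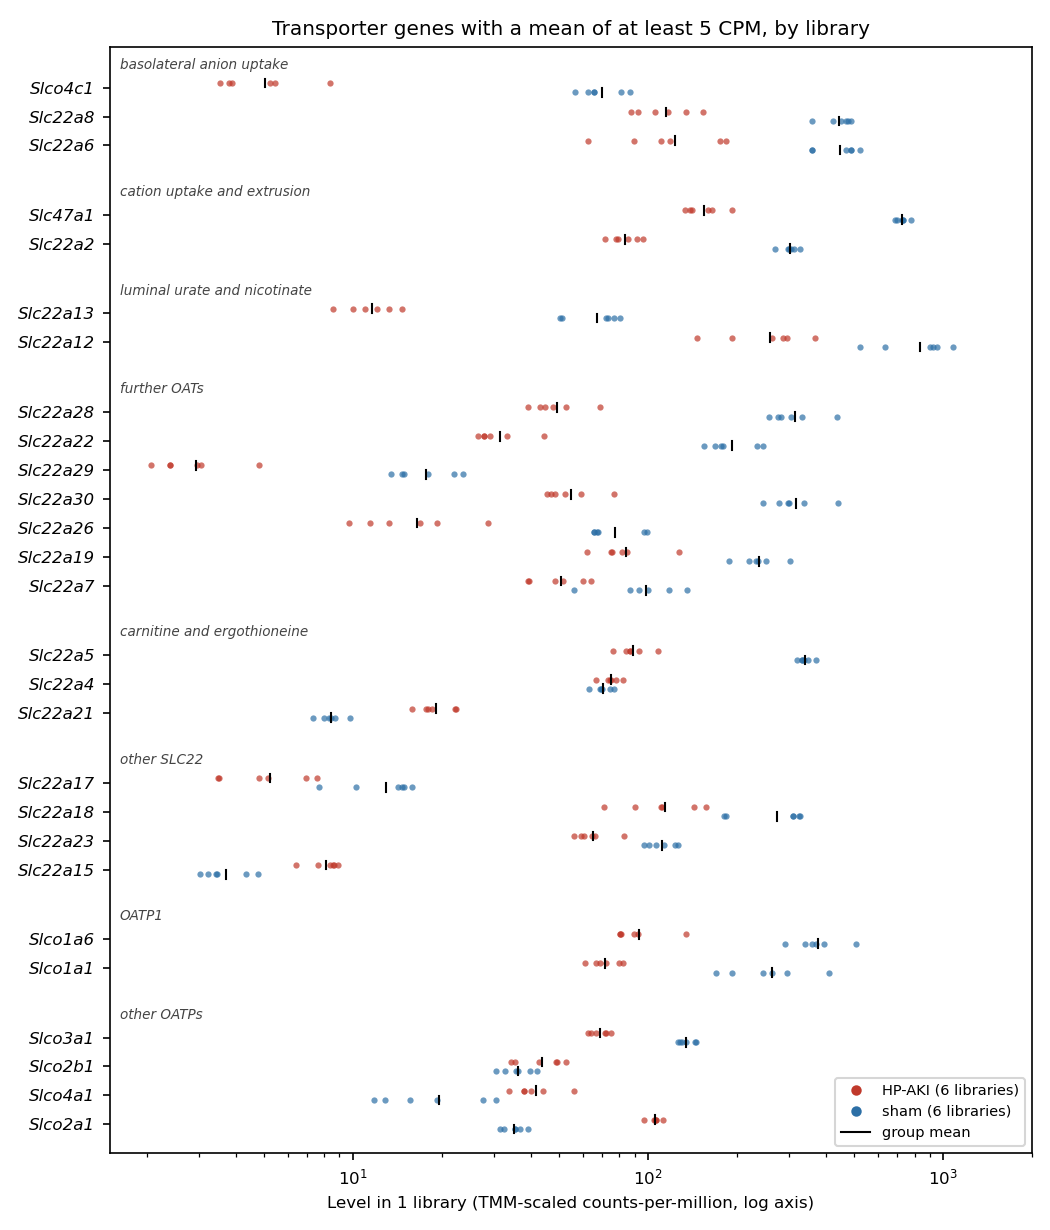
Level in each library of 27 transporter genes that averaged 5 CPM or more, on a log axis, with HP-AKI drawn above sham for each gene and a black tick at each group mean. The groups overlap in Slc22a4, Slco2b1 and Slc22a7. Slco2a1, Slc22a21, Slc22a15 and Slco4a1 lie to the right in HP-AKI, and the others lie to the left in HP-AKI.

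Both genes of luminal urate and nicotinate transport fell. Slc22a12, which encodes the urate reabsorber URAT1, had 146, 274 and 367 CPM in HP-AKI and 524, 915 and 1084 CPM in sham, a log2 fold change of -1.70 ± 0.22 (SE). Sham 1 and sham 2 were the lowest sham libraries and HP-AKI 8 the lowest HP-AKI library, and without these 3 the log2 fold change was -1.83. The ratio of Slc22a12 to Slc22a6 averaged 2.16 ± 0.325 in HP-AKI and 1.85 ± 0.215 in sham, with overlapping ranges. Of its exon bases, 30.1% overlap Nrxn2 on the opposite strand, a gene with 1481 counts in all against 242375 for Slc22a12. Slc22a13, which encodes OAT10, a transporter of nicotinate and urate, had 8.53, 11.5 and 14.7 CPM in HP-AKI and 50.5, 72.5 and 80.3 CPM in sham. It was 5.82-fold lower in HP-AKI, and 36.0% of its 50-base words also occur in the pseudogene Slc22a13b-ps, so its count is uncertain.

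All 8 tested genes among the OATs outside basolateral uptake and urate transport fell, 7 of them at least 2-fold. Several of them are known only from rodents. Slc22a22 encodes OAT-PG, a prostaglandin carrier of the mouse proximal tubule. It had 26.5, 28.5 and 44.5 CPM in HP-AKI and 155, 178 and 245 CPM in sham, 6.12-fold lower in HP-AKI. Slc22a28 had 39.2, 46.1 and 68.7 CPM in HP-AKI and 258, 293 and 438 CPM in sham. Slc22a30, the neighbour with the most similar promoter, had 45.4, 50.3 and 76.9 CPM in HP-AKI and 246, 299.8 and 442 CPM in sham. In both genes the groups stood apart and HP-AKI 8 was the highest HP-AKI library. The ratio of Slc22a28 to Slc22a30 lay at 0.863 to 0.922 in HP-AKI and 0.918 to 1.05 in sham. These transcripts share sequence, since 53.3% of the 50-base words of Slc22a28 occur in Slc22a30 and 32.1% of those of Slc22a30 in Slc22a28, so how the counting divided reads between them is uncertain.

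Slc22a29 was rarer, with 2.08, 2.68 and 4.81 CPM in HP-AKI and 13.4, 16.4 and 23.5 CPM in sham. Slc22a27 lay near 1 CPM or below, from 0.123 to 0.233 CPM in HP-AKI and from 0.830 to 1.55 CPM in sham, and had the second largest fall (log2 fold change -2.82 ± 0.24, SE; adjusted p 4.70e-08, edgeR). This fall rested on 35 counts over the HP-AKI group and 247 over the sham group. With 4 to 8 counts in each HP-AKI library, the gene passed the abundance filter only through sham, which favoured a fall. Slc22a27 shares 25.8% of its 50-base words with Slc22a29, and Slc22a29 shares 24.4% of its own with Slc22a27, so both counts are uncertain. Slc22a26 had 9.69, 15.03 and 28.7 CPM in HP-AKI and 65.6, 67.4 and 99.1 CPM in sham. Slc22a19, which encodes OAT5, a carrier of steroid sulfates, fell less, with 61.9, 78.6 and 127 CPM in HP-AKI and 188, 234 and 303 CPM in sham (2.83-fold lower in HP-AKI). Slc22a7, which encodes OAT2, fell least of the group, to 39.1, 49.9 and 64.3 CPM in HP-AKI against 56.2, 96.7 and 136 CPM in sham, and its groups overlapped through sham 1. Slc22a20, an OAT of olfactory mucosa, had 2 counts in HP-AKI and 0 in sham.

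The carnitine and ergothioneine transporters moved in different directions although 3 of them are neighbours. Slc22a5 encodes OCTN2, which reclaims carnitine from the tubule lumen. It had 75.8, 87.0 and 108 CPM in HP-AKI and 319, 335 and 372 CPM in sham, 3.81-fold lower in HP-AKI (log2 fold change -1.93 ± 0.09, SE; adjusted p 3.96e-11, edgeR). Slc22a21, which encodes the mouse carnitine transporter OCTN3, had 15.9, 18.2 and 22.4 CPM in HP-AKI and 7.30, 8.37 and 9.80 CPM in sham, 2.27-fold higher in HP-AKI (adjusted p 1.15e-07, edgeR). Every HP-AKI library was above every sham library. Slc22a4 encodes OCTN1, the ergothioneine transporter. It had 66.6, 74.5 and 82.4 CPM in HP-AKI and 62.9, 69.6 and 76.5 CPM in sham. The groups overlapped, and the log2 fold change of 0.09 ± 0.07 (SE) did not pass (adjusted p 0.249, edgeR). With library size as the only scaling it passed, at 0.21. Within a library, the CPM of Slc22a21 stood at 0.218 ± 0.0503 of that of Slc22a5 in HP-AKI and 0.0248 ± 0.00320 in sham (SD, n = 6 each). The CPM of Slc22a4 stood at 0.847 ± 0.103 of that of Slc22a5 in HP-AKI and 0.207 ± 0.0180 in sham. The groups did not overlap in either ratio. Per kilobase of listed gene length, Slc22a4 and Slc22a5 averaged 29.3 and 29.1 CPM per kb in HP-AKI, and 27.5 and 111 CPM per kb in sham. Slc22a21 and Slc22a5 share sequence. Of the 50-base words of Slc22a21, 23.8% occur in Slc22a5, and 26.9% of those of Slc22a5 occur in Slc22a21. How the counting divided reads between them is uncertain, and so is the low level of Slc22a21 in sham. Slc22a16, a carnitine transporter of testis, had no count, which allows up to 0.0136 CPM in HP-AKI and 0.0137 CPM in sham (3 counts over a group, counting error only).

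Of the other 5 SLC22 genes, 4 fell and 1 rose. Slc22a17 encodes a cell-surface receptor for lipocalin-2, the product of Lcn2. It had 3.48, 4.98 and 7.55 CPM in HP-AKI and 7.70, 14.4 and 15.8 CPM in sham, a log2 fold change of -1.30 ± 0.22 (SE; adjusted p 7.40e-05, edgeR). Lcn2 itself averaged 2078 ± 327 CPM in HP-AKI and 2.16 ± 0.638 CPM in sham (SD, n = 6 each). Slc22a18, an imprinted gene whose substrate is not settled, had 70.8, 111 and 157 CPM in HP-AKI and 180, 310.2 and 326 CPM in sham. Slc22a23, an orphan member, had 56.3, 62.6 and 82.7 CPM in HP-AKI and 96.9, 109.9 and 126 CPM in sham. In these 3 genes the groups did not overlap, and sham 1 and sham 2 were the lowest sham libraries. Slc22a14, known from sperm, stayed between 0.784 and 1.90 CPM over both groups and fell by 0.59 on the log2 scale with overlapping values. Slc22a15, whose human counterpart carries zwitterions such as ergothioneine, rose to 6.42, 8.47 and 8.90 CPM in HP-AKI against 3.02, 3.45 and 4.75 CPM in sham (log2 fold change 1.13 ± 0.13, SE; adjusted p 2.05e-06, edgeR).

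In the OATP1 subfamily, 3 of 4 tested genes fell and 1 rose. Slco1a1, a carrier of bile acids and steroid conjugates in mouse liver and kidney, had 61.0, 70.6 and 82.1 CPM in HP-AKI and 169.7, 254 and 409 CPM in sham (log2 fold change -1.87 ± 0.18, SE). Slco1a6, a relative abundant in mouse kidney, had 80.1, 85.4 and 134 CPM in HP-AKI and 291, 365 and 508 CPM in sham (log2 fold change -2.02 ± 0.15, SE). Sham values of both genes spread widely and still lay above every HP-AKI value. Slco1a4 was rarer and fell as well, to 1.63 to 2.26 CPM in HP-AKI against 3.34 to 5.73 CPM in sham. Slco1c1 encodes OATP1C1, the thyroxine transporter of brain capillaries. It rose to 0.641, 0.872 and 1.26 CPM in HP-AKI against 0.0732, 0.0996 and 0.188 CPM in sham. This was the largest rise of all members, 7.95-fold, and rested on 197 counts over the HP-AKI group and 24 over the sham group (log2 fold change 2.99 ± 0.28, SE; adjusted p 1.25e-07, edgeR). Sham libraries held 3 to 7 counts each, so Slco1c1 passed the abundance filter only through HP-AKI, which favoured a rise. Slco1b2, the liver OATP, and Slco1a5 had 21 counts each in HP-AKI and 50 and 33 counts in sham and were not tested.

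Of 5 other tested OATP genes, 4 rose and 1 fell. Slco2a1 encodes the prostaglandin transporter PGT, which takes prostaglandins back into cells. It had 96.6, 106 and 113 CPM in HP-AKI and 31.5, 35.4 and 39.2 CPM in sham, with no overlap (log2 fold change 1.58 ± 0.07, SE; adjusted p 4.66e-11, edgeR). The prostaglandin carrier Slc22a22 thus fell where Slco2a1 rose. Slco4a1 encodes OATP4A1, a thyroid hormone and prostaglandin carrier. It had 33.8, 39.0 and 56.2 CPM in HP-AKI and 11.8, 17.4 and 30.6 CPM in sham (log2 fold change 1.09 ± 0.22, SE). Its sham values ran over a wide range that ended just below the lowest HP-AKI value. Slco2b1 encodes OATP2B1, a carrier of steroid sulfates. It had 34.2, 45.8 and 52.8 CPM in HP-AKI and 30.5, 36.0 and 42.1 CPM in sham, with overlapping groups. Its log2 fold change of 0.28 ± 0.12 (SE) passed only narrowly (adjusted p 0.0474, edgeR). It did not pass without HP-AKI 7, 11, 12 or 13 or without sham 1, 2, 3 or 6 (0.20 to 0.27), nor without sham 1, sham 2 and HP-AKI 8 together (0.21).

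Slco5a1, an orphan OATP, was at 0.369, 0.553 and 0.990 CPM in HP-AKI and 0.0488, 0.0573 and 0.213 CPM in sham. The HP-AKI group held 129 counts and the sham group 18. With 2 to 7 counts in each sham library, Slco5a1 also passed the abundance filter only through HP-AKI. Its log2 fold change of 2.78 ± 0.39 (SE; adjusted p 1.12e-05, edgeR) was 3.24 without sham 1, the highest sham library. Slco3a1, a broadly expressed OATP, fell, with 62.8, 68.9 and 74.9 CPM in HP-AKI and 126, 132 and 146 CPM in sham (log2 fold change -0.97 ± 0.07, SE). Slco6c1 had 5 counts in HP-AKI and 0 in sham, and Slco6d1 had no count. Both belong to a subfamily known from testis.

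Per kilobase of the listed gene length, Slc22a12 was the most abundant member in both groups, at 115 ± 34.9 CPM per kb in HP-AKI and 372 ± 94.7 CPM per kb in sham (SD, n = 6 each). In sham the next were Slc47a1 at 214 ± 9.72, Slc22a18 at 159 ± 40.9 and Slc22a28 at 157 ± 32.7 CPM per kb, and the last 2 did not differ beyond their spread. In HP-AKI Slc22a18 followed at 66.3 ± 18.6 CPM per kb, and Slc47a1 stood at 45.9 ± 6.61 CPM per kb, with overlapping spreads. Slc22a4, which did not pass the test, was 8th per length in HP-AKI and 17th in sham, at 29.3 ± 2.06 CPM per kb in HP-AKI and 27.5 ± 1.86 CPM per kb in sham. Slc22a28 was 11th in HP-AKI and 4th in sham, at 24.6 ± 5.25 CPM per kb in HP-AKI and 157 ± 32.7 CPM per kb in sham.

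By position, 28 of the 41 genes lie in 8 runs of neighbours with gaps under 1 Mb. The longest run, on chromosome 19 of GRCm38 from 7673061 to 8628299, holds 8 genes, from Slc22a19 to Slc22a6, and all 8 fell, with a median log2 fold change of -2.38. The 5 genes in its middle, Slc22a26 to Slc22a30, had log2 fold changes of -2.22 to -2.82, and Slc22a8 and Slc22a6 at its end had -1.95 and -1.86. On chromosome 6 from 141524386 to 142322981 Slco1c1 rose at 1 end of a run in which Slco1a4, Slco1a1 and Slco1a6 fell. On chromosome 11 from 53864542 to 54028090 Slc22a5 fell, Slc22a21 rose and Slc22a4 did not pass.

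**Figure D4:**
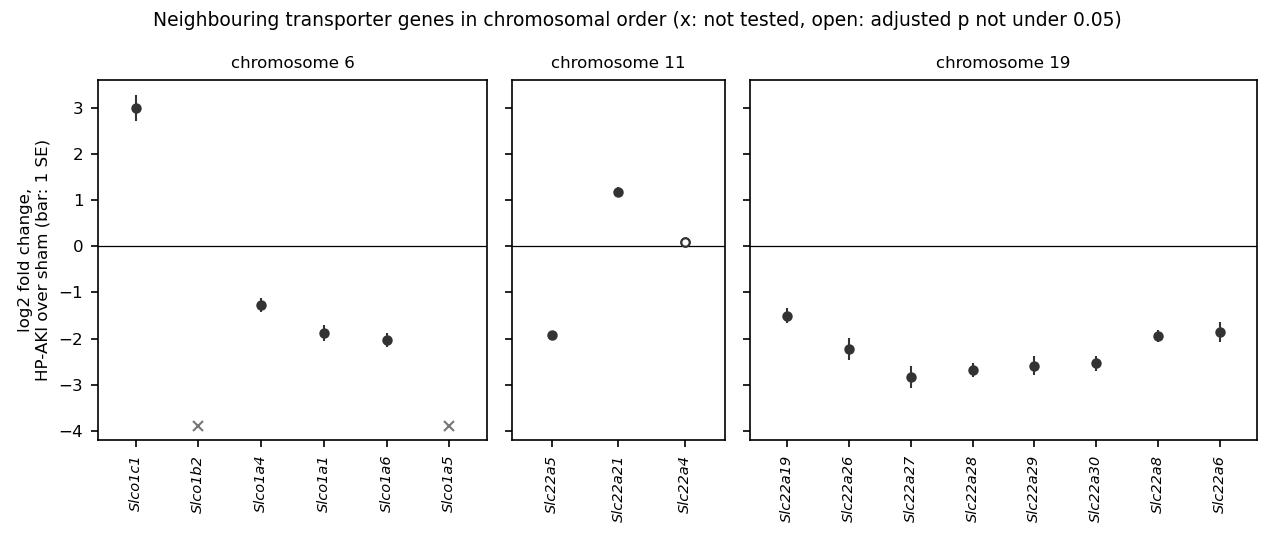
Log2 fold change of HP-AKI over sham with 1 SE for 3 runs of neighbouring transporter genes, in chromosomal order; crosses mark genes that were not tested and the open point did not pass an adjusted p of 0.05. All 8 genes of the chromosome 19 run lie below 0, while the runs on chromosomes 6 and 11 hold genes on both sides of 0.

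Promoter letters were searched in RefSeq windows of 300 bases, of which 40 belong to 35 of the 41 genes. On both strands, none of the 40 held the HNF4 direct repeat, found in 0.0396% of all 32851 promoters, or the HNF4 letters CAAAGTCCA, found in 0.475%. The AP-1 letters TGANTCA were in 2 of the 40, of Slco1a5 and Slco2b1, and in 7.81% of all. TGACNNNGC was in 4 of the 40, among them Slco4c1, where the printed sequence holds it at -85 and, on the other strand, at -28, and in 12.4% of all. A match is a description and not a site, and a window without a match says only that these letters are not in it.

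Genes that work with these transporters moved in both directions. Of 30 tested partner genes, 19 fell, 7 rose and 4 did not pass, with a median log2 fold change of -0.84. Of all genes tested, 35.2% fell and 37.7% rose. All 5 exchange partners fell. Slc13a3, which encodes NaDC3, the carrier that supplies the dicarboxylate exchanged by OAT1 and OAT3, averaged 49.5 ± 15.2 CPM in HP-AKI and 399.7 ± 61.7 CPM in sham (SD, n = 6 each), 8.07-fold lower in HP-AKI. Slc5a8, a lactate and nicotinate cotransporter, was 7.30-fold lower in HP-AKI. Pdzk1, which encodes a luminal scaffold that binds URAT1 and other carriers, averaged 151 ± 33.2 CPM in HP-AKI and 1272 ± 169 CPM in sham, the largest fall on the list (log2 fold change -3.08 ± 0.15, SE).

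Of 13 tested efflux genes, 6 rose and 6 fell. Over all genes tested 37.7% rose and 35.2% fell, and the smaller groups below are to be read beside these shares. Divided by gene family after the values were seen, 6 of 8 ABC pumps rose and 2 fell, Abcc6 and Abcg2. Of 5 SLC carriers on the list 4 fell, and Slc51b did not pass (log2 fold change 0.0041). Abcc3, a basolateral conjugate pump, rose most, to 14.3 ± 2.70 CPM in HP-AKI against 3.21 ± 0.450 CPM in sham (SD, n = 6 each), a log2 fold change of 2.15. The drug pump Abcb1a rose by 1.61 on the log2 scale. Abcc2, the luminal conjugate pump MRP2, averaged 1908 ± 251 CPM in HP-AKI and 734 ± 83.4 CPM in sham, a log2 fold change of 1.38. Among the falls, Slc17a3, a luminal urate and anion exporter, was 4.94-fold lower in HP-AKI and Abcg2, a luminal urate and drug exporter, averaged 348 ± 41.7 CPM in HP-AKI and 696 ± 101 CPM in sham. Of 9 tested regulators, 6 fell and Nfe2l2, which encodes NRF2, rose (log2 fold change 1.24). Hnf4a, a nuclear receptor of tubule and liver genes, averaged 155 ± 37.8 CPM in HP-AKI and 800.3 ± 43.7 CPM in sham (log2 fold change -2.36 ± 0.13, SE).

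Part of the spread within a group followed base composition. Among the 28 genes that averaged 5 CPM or more, the longest transcripts had a GC content of 38.5% to 57.9%. Below 45% GC lie 9 of them, and all 9 were higher in sham 1 and sham 2 than in the other 4 sham libraries, by a median of 0.45 on the log2 (CPM + 0.05) scale. In HP-AKI 8 against the other 5 HP-AKI libraries, 8 of these 9 were higher, with Slco1a6 as the exception. Of the 19 genes at 45% GC or above, 4 were higher in sham 1 and sham 2, and the median difference was -0.27. Over the 28 genes Pearson's r of GC content with the difference was -0.75 for HP-AKI 8 and -0.92 for sham 1 and sham 2. Over all 17326 tested genes with a GC value it was -0.57 for HP-AKI 8 and -0.69 for sham 1 and sham 2. These are descriptions across genes, which share libraries and are not independent. Between HP-AKI and sham, all 9 genes below 45% GC fell (median log2 fold change -2.53). Of the 19 at 45% GC or above, 13 fell and 5 rose (median -1.12). The part of GC content in these changes was not tested. Without the 3 libraries no member reversed, and Slco2b1 was the member whose call ended.

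**Figure D5:**
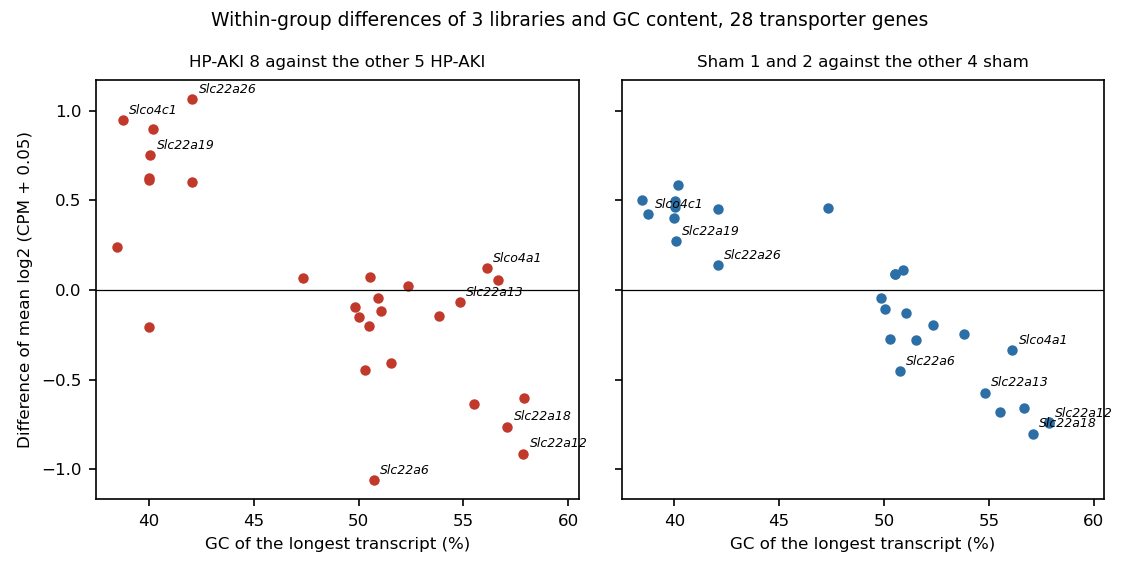
GC content of the longest transcript against the within-group difference of mean log2 (CPM + 0.05) for 28 transporter genes, left for HP-AKI 8 minus the other 5 HP-AKI libraries and right for sham 1 and 2 minus the other 4 sham libraries. Points fall from upper left to lower right in both panels, with Pearson's r of -0.75 on the left and -0.92 on the right.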

How the data were processed

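Counts per gene were made by the authors and deposited as raw whole numbers, 1 column per sample. The authors also deposited RPKM values, which imply a sample total of 2.97 to 3.47 times the count sum and were used for no result. Per the submitters' processing notes, TopHat2 2.1.0, featureCounts, edgeR and GRCm38 were used, without roles or settings. Per the labels' protocols, total RNA went into the TruSeq RNA Sample Prep Kit v2, a type of kit that does not mark strand.

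Counts of all 12 samples, grouped by title, entered edgeR 4.0.16 under R 4.3.3. Genes were kept by filterByExpr and libraries scaled by TMM. HP-AKI was compared with sham by a two-sided quasi-likelihood F-test, and the p-values of all 17470 kept genes were adjusted by Benjamini-Hochberg. The SE is the log2 fold change over the square root of F. No batch or pairing is given in the labels. Library pairs all differed beyond sampling noise. Lengths are those the authors listed. The floors for genes without counts cover counting error only, whereas SD and SE include variation among libraries. Shared 50-base words, GC content and overlaps come from GENCODE vM21. Named are members with a mean of at least 5 CPM, the 4 largest rises and falls and tested members that did not pass, of the partner list the 3 largest changes each way and some regulators; other members, and further partners, were named after their values were seen. The members, roles and lists were chosen with earlier results of these data known. The partner list held 31 genes of the table, 30 tested; Slc9a3r3 matched no name. Alternatives were RLE, upper-quartile and library-size scaling, 2 other filters, DESeq2 1.42.0, limma-voom 3.58.1, protein-coding genes only and leaving out libraries. The steps were tested on simulated data with planted changes. Protein identities were not computed. Results on some genes and motifs are not reported here, though counts and sums over the list include every member. Tables and figures used Python 3.11.15 and matplotlib 3.10.9.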

Additional observations from a re-analysis of the deposited data

Results flagged for a closer look

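Of 70 groups of 6 values looked at (35 tested members in HP-AKI and in sham), 5 held a library far from the other 5, where chance gives such a value in about 1 group in 20. In HP-AKI 8, Slc22a19 stood at 127 CPM, above the next value of 84.8 CPM, and Slc22a29 at 4.81 CPM, above 3.05 CPM. In HP-AKI 12, Slc22a23 stood at 82.7 CPM, above 66.1 CPM, and Slco1a6 at 134 CPM, above 92.2 CPM. In sham 1, Slco5a1 stood at 0.213 CPM, above 0.0796 CPM. Each of these was the highest value of its group.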

How the results depend on the processing

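Over 21 alternatives, 9 of them settings and 12 leaving out 1 library, 33 of the 35 tested transporter genes kept their direction and their side of the threshold wherever they could be tested. The exceptions were Slco2b1, which lost its call in 14 of 21 (log2 fold change 0.20 to 0.39, adjusted p 0.0113 to 0.146), and Slc22a4, which gained one with library size only (0.21, adjusted p 0.0131, range 0.0131 to 0.596). Over all alternatives 24 to 28 members fell and 5 to 8 rose. The log2 ratio of their summed level ran from -1.70 to -1.52 over 19 alternatives, as DESeq2 and limma-voom give none. Leaving out 1 library gave 27 falls each time and 6 or 7 rises. The partner list held 19 to 21 falls and 7 or 8 rises. With library size only, all genes tested had a median of 0.16, against 0.04 with TMM. No paired analysis was possible because the groups share no sample numbers. At this depth 4 members with counts were too rare to test, and 2 had none.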
